A study of Mus musculus with 6 samples.

Results

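The genes described here are 10 cell adhesion molecules outside the cadherin and integrin families, chosen by symbol: Pecam1, Icam1, Epcam, Nectin1, Nectin2, Nectin3, F11r, Alcam, Ncam1 and L1cam. All 10 were found among the 53819 gene symbols of the count table, and all 10 had enough reads to be tested with the 17155 tested genes. They were measured by mRNA sequencing of gastruloids, which are 3D aggregates of mouse embryonic stem cells (ESCs), here of the line E14. The groups were 3 untreated libraries and 3 libraries of aggregates kept for 80 h in budesonide, a synthetic glucocorticoid. The labels give no vehicle for the untreated group and no collection time for it. Nor do they say that the replicates came from separate cultures. The p-values therefore cover no more than the spread among these libraries, part or all of which may be technical. The title of the series concerns cell-cell adhesion in such aggregates, and the comparison asks how these adhesion genes stood with budesonide.

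Most of these proteins are single-pass membrane proteins whose outer part is a row of immunoglobulin domains. Nectins bind each other across the gap between neighbouring cells and are tied to actin by afadin, at the same junctions that hold the cadherins. JAM-A, the product of F11r, sits at tight junctions. NCAM1, L1CAM and ALCAM are best known from the nervous system, and PECAM1 (CD31) and ICAM1 (CD54) from blood vessels, but mouse ESCs also carry PECAM1. EpCAM has no immunoglobulin domain and marks epithelia and pluripotent cells.

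With budesonide, Pecam1 and Icam1 rose, Alcam, Nectin2 and Epcam fell, and the other 5 did not pass the test. Pecam1 was 2.95-fold higher and Alcam 3.50-fold lower, and the other 3 changes were between 1.51-fold and 1.74-fold. Thus 2 members passed with a change of over 2-fold, as did 5.1% of all tested genes. The threshold was a Benjamini-Hochberg adjusted p of 0.05 in the quasi-likelihood test of edgeR. Of the 10 members 2 rose and 3 fell, where 15.2% of all tested genes rose and 13.5% fell, 28.7% in all. These shares are also the background for the counts in the gene and marker lists below. The members and gene lists were chosen with earlier results of these data known. The counts and medians therefore describe the members and do not test them as a set. The share of higher genes among all called was 52.9%, and 38.6% with no scaling factors. The median size of the log2 fold change was 0.52 over the members and 0.25 over all tested genes, and the signed medians were -0.06 and -0.02. In bulk RNA, fewer cells that express a gene and less RNA of it per cell cannot be told apart.

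**Figure D1:**
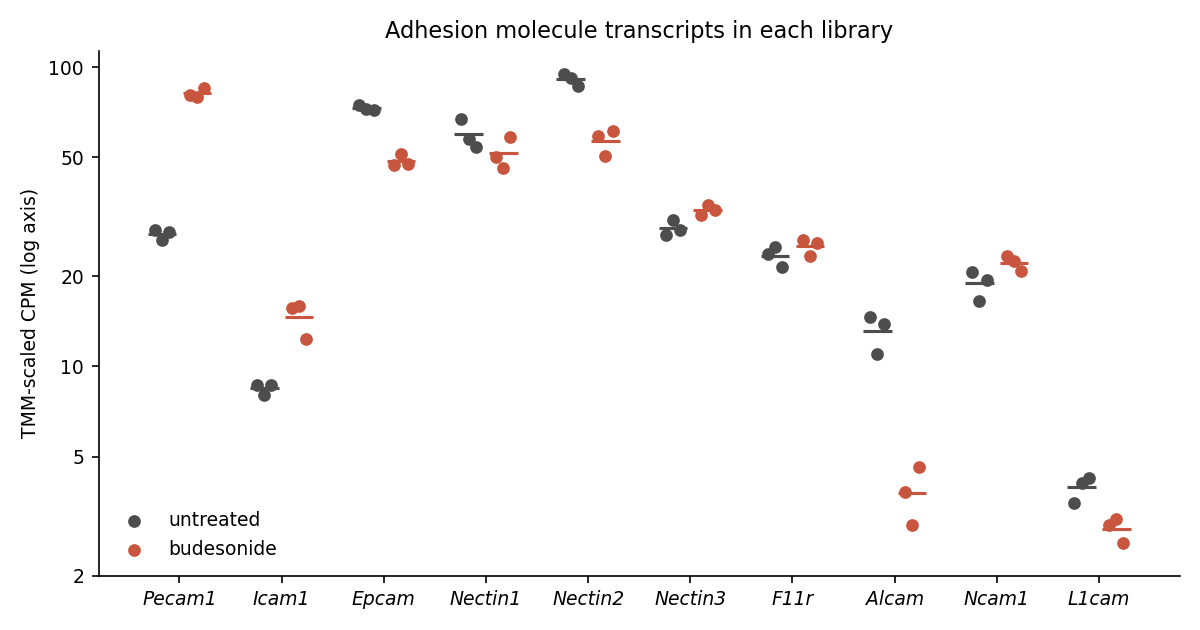
TMM-scaled CPM (log axis) of the 10 adhesion molecules in each library. Points are libraries (3 untreated in grey, 3 budesonide in red) and bars are group means. Pecam1 stands at 26.4 to 28.7 CPM without and 79.5 to 84.9 CPM with budesonide, while the F11r points of the groups overlap.

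Promoter sequence is shown for the 4 changed members with an entry in the RefSeq promoter table, because these genes changed in opposite directions. Each line is the 250 bases before the annotated start, 5′ to 3′ on the gene's strand (RefSeq, GRCm38.p6). They are Epcam at chr17:87635729-87635978 on the plus strand, Nectin2 at chr7:19749574-19749823 on the minus strand, Alcam at chr16:52453082-52453331 on the minus strand and Icam1 at chr9:21015690-21015939 on the plus strand. Capitals mark the E-box CACCTG or its reverse complement CAGGTG, the sequence bound by repressors of the Snail and Zeb families, and in Icam1 also GGAAATTCC, a site known to bind NF-kappaB.
Epcam: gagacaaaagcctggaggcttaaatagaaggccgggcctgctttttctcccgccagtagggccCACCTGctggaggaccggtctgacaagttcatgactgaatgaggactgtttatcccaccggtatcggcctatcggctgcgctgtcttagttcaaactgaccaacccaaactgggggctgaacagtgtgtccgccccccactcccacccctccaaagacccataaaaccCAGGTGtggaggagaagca
Nectin2: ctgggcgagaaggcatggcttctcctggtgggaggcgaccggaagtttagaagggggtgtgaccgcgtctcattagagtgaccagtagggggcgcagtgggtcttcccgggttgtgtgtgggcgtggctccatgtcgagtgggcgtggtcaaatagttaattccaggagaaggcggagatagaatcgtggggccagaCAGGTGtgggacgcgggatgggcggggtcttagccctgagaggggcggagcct
Alcam: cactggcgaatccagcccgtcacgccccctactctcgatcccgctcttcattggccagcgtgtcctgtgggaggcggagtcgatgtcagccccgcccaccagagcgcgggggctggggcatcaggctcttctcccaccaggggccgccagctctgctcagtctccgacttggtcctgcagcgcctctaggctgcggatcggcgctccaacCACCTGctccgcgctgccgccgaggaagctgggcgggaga
Icam1: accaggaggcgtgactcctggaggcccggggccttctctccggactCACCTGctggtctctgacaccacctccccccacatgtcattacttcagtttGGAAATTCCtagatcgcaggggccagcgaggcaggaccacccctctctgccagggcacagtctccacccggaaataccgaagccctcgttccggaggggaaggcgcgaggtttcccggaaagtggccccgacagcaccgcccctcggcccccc

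The E-box lay at -187 to -182 and at -19 to -14 before Epcam, at -53 to -48 before Nectin2, at -40 to -35 before Alcam and at -204 to -199 before Icam1, counted from the annotated start. F11r, which did not pass the test, also held it, at -122 to -117. In all, 5 of the 7 members with an entry held it (Nectin3 and L1cam did not), against 17.2% of 32851 promoter windows of the same length. The members' windows were 56.4% (Epcam) to 73.2% (Nectin3) G and C, where the median of all windows was 52.4%. The comparison was not matched for this. The E-box was 1 of 10 motifs searched on both strands and singled out after the matches were seen. It stood before risen, fallen and not passing members alike. GGAAATTCC, searched for after it was seen in Icam1, was found at -153 to -145 before Icam1 and no other of the 7, and in 0.286% of all windows. The others were AGAACA (16.1% of windows, no member), the full glucocorticoid response element, which is AGAACA and TGTTCT 3 bases apart (0.00913%, no member), the NF-kappaB consensus, some of whose matches contain GGAAATTCC (3.90%, no member), TATAAA (12.4%, no member), AGATAA (9.99%, no member), CCACCC (28.1%, Epcam, Nectin3 and Icam1), TTCNNNGAA (7.02%, Icam1) and CCGGAAG (6.91%, Nectin2). These matches describe the letters of a window of 250 bases and no binding was measured.

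Pecam1 encodes an immunoglobulin adhesion receptor that binds itself on the next cell and signals through phosphatases docked on its tail. Untreated libraries held 188, 188 and 179 reads of it, which is 28.7, 26.4 and 28.1 CPM, and budesonide libraries 574, 540 and 462 reads, or 80.9, 79.5 and 84.9 CPM. Every budesonide library lay far above every untreated library, and the spread within each group was small. The log2 fold change was 1.56 ± 0.09 (SE), with a 95% interval of 1.39 to 1.73 and adjusted p = 8.69e-20 by edgeR, and its size exceeded that of 98.9% of all tested genes. No alternative changed this call, and the log2 fold change stayed between 1.48 and 1.59.

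Since PECAM1 is a standard marker of endothelium, the other endothelial markers were read beside it. Of 10 endothelial markers 6 had enough reads for a test, 1 of them rose and none fell, and their summed level was 36.3 to 43.3 CPM in untreated and 36.2 to 42.7 CPM in budesonide libraries. The defining cadherin of endothelium, Cdh5 (named after its value was seen), was at 3.03 ± 0.90 and 2.61 ± 0.71 CPM (SD, n = 3). It held 13 to 25 reads a library and did not pass. The member that rose, the angiopoietin receptor Tek, also the highest of the list, went from 14.002 ± 2.03 to 18.3 ± 0.40 CPM (edgeR adjusted p = 0.0280), and it did not pass in DESeq2 (adjusted p = 0.118). Of 8 pluripotency markers 6 rose and none fell, and their sum went from between 1410 and 1474 CPM to between 2087 and 2271 CPM. Their highest gene, Pou5f1, was at 734 ± 7.03 and 776 ± 48.1 CPM (edgeR adjusted p = 0.290). Blood and immune markers summed to 17.01 to 19.8 CPM without and 13.7 to 15.3 CPM with budesonide (4 of 10 tested, 1 lower, none higher), and the integrin chain Itgb2, the highest of them in untreated libraries, fell from 5.58 ± 1.41 to 2.705 ± 0.31 CPM. Ptprc (CD45), the highest with budesonide, was at 3.38 ± 1.29 and 3.79 ± 0.43 CPM and did not pass. The part of any of these in the rise of Pecam1 was not tested.

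Icam1 encodes the endothelial and epithelial ligand of leukocyte integrins and is a classic target of NF-kappaB. The GGAAATTCC marked in its promoter sequence above was searched for only after it was seen there. The NF-kappaB consensus itself had no match in that window. Levels of Icam1 were 8.69, 8.01 and 8.64 CPM (57, 57 and 55 reads) in the untreated libraries. With budesonide they were 15.6, 15.9 and 12.3 CPM (111, 108 and 67 reads). The groups did not overlap, and the third budesonide library was the lowest of its group. Icam1 rose by a log2 fold change of 0.80 ± 0.16 (SE; 95% interval 0.48 to 1.13), adjusted p = 0.000104 by edgeR. An antisense gene, Gm47079, covers 11.7% of the exonic bases of Icam1 in GENCODE M21 and held 2 to 6 reads without and 6 to 12 reads with budesonide, so with the strand setting unknown a few reads could have moved between them. Antisense genes of at most 10 reads a library also overlap Nectin2 (3.86% of its exonic bases) and Ncam1 (4.81%).

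Epcam, which encodes a homophilic adhesion protein of epithelia and pluripotent cells, stood at 74.8, 72.6 and 72.0 CPM in untreated libraries. In the budesonide libraries it stood at 46.9, 51.1 and 47.4 CPM. The groups were well apart, and the fall of 0.59 ± 0.08 (SE) on the log2 scale passed with edgeR adjusted p = 3.82e-08. Cldn7, a claudin that binds EpCAM, had too few reads for a test, as did the tetraspanin Tspan8. Of the 13 tested genes of its family, partners and proteases, 1 rose and 1 fell, and the median log2 fold change was -0.13. The tetraspanin Cd9, which associates with EpCAM, rose from 7.53 ± 0.82 to 11.9 ± 1.65 CPM (edgeR adjusted p = 0.00297). Fhl2, a LIM-domain protein that binds the tail EpCAM releases on cleavage, fell from 3.83 ± 0.36 to 1.10 ± 0.20 CPM (edgeR adjusted p = 0.000119). The genes of the cleaving proteases Adam10, Adam17 and Bace1 did not pass, nor did the matriptase gene St14, the most abundant of the list, or its inhibitors Spint1 and Spint2.

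Epithelial markers were read beside it. Of 8 markers of surface ectoderm and simple epithelium 7 were tested, 1 fell and none rose, and the summed level was 35.8 to 43.7 CPM in untreated and 26.05 to 31.6 CPM in budesonide libraries. The keratin gene Krt8, the highest of the list in untreated libraries, fell from 11.2 ± 2.04 to 4.64 ± 1.57 CPM (edgeR adjusted p = 3.30e-06). Its partner keratin Krt18 was at 8.67 ± 0.44 and 6.12 ± 1.49 CPM and just missed the threshold (edgeR adjusted p = 0.0517). The transcription factor Grhl3, the highest over all libraries, was at 7.41 ± 0.95 and 8.80 ± 0.68 CPM and did not pass. Endoderm markers summed to 246 to 272 and 219 to 252 CPM (5 of 9 tested, 1 lower, none higher), of which 92.6% came from Trh. Trh was at 231 ± 14.2 and 222 ± 17.1 CPM and did not pass (edgeR adjusted p = 0.545). The endoderm marker that fell was the transcription factor Foxa2, from 11.2 ± 2.85 to 0.81 ± 0.43 CPM. Its log2 fold change of -3.82 (edgeR adjusted p = 8.48e-14) was larger in size than that of any of the 10 adhesion molecules. EpCAM also marks pluripotent cells, and of the 8 pluripotency markers given with Pecam1 6 rose and none fell (median log2 fold change 0.79). The part of any of these cells in the fall of Epcam was not tested.

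**Figure D2:**
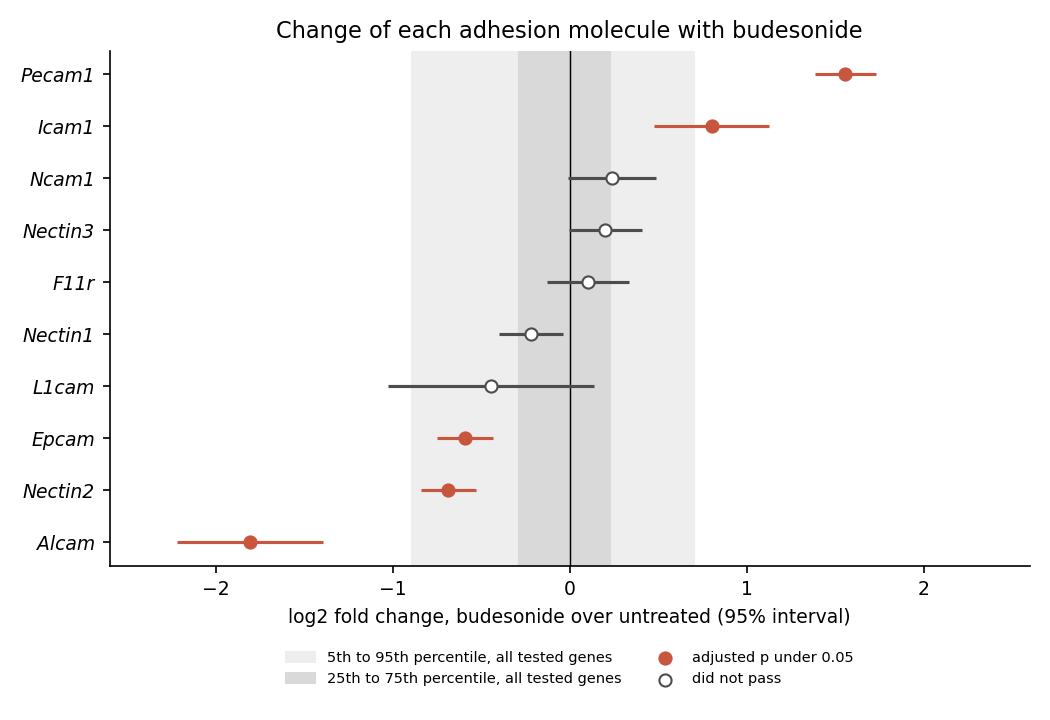
Log2 fold change of each adhesion molecule, budesonide over untreated, with its 95% interval (bars); filled red points passed at an adjusted p under 0.05. Grey bands span the 5th to 95th percentile (-0.89 to 0.70) and the 25th to 75th percentile (-0.29 to 0.23) of all 17155 tested genes; Pecam1, Icam1 and Alcam lie outside the wider band.

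The 3 nectins differed in what the test found. Nectin2 fell, Nectin1 did not pass but was close to the threshold, and Nectin3 did not pass and was nominally higher. Nectin2 read 94.7, 92.1 and 86.4 CPM in untreated libraries. It read 58.9, 50.3 and 61.0 CPM in budesonide libraries, each below every untreated library. The log2 fold change was -0.69 ± 0.08 (SE; 95% interval -0.84 to -0.53), adjusted p = 7.17e-10 by edgeR, a level 1.61-fold lower.

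Nectin1, which is also an entry receptor for herpes simplex virus, had 67.1, 57.6 and 54.2 CPM without budesonide. With it the values were 50.01, 45.9 and 58.5 CPM, and the third budesonide library lay above 2 of the untreated ones, so the groups overlapped. The log2 fold change was -0.22 ± 0.09 (SE; 95% interval -0.40 to -0.04), edgeR adjusted p = 0.0592. It passed as lower with upper quartile scaling (adjusted p = 0.0133), no scaling factors (0.00843), no filter on low counts (0.0469), without untreated replicate 3 (0.0376) and without budesonide replicate 3 (0.00934). Left out in turn, the other 4 libraries gave adjusted p from 0.0805 to 0.404, and the log2 fold change was -0.12 without untreated replicate 1 and -0.13 without budesonide replicate 2.

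Nectin3, the preferred partner of nectin-1 across a junction, had 27.4, 30.8 and 28.6 CPM in untreated and 32.0, 34.7 and 33.3 CPM in budesonide libraries. These groups did not overlap, but the log2 fold change of 0.20 ± 0.10 (SE; 95% interval 0.00 to 0.41) did not pass, edgeR adjusted p = 0.144. Summed over the 3 nectins, the level was 189, 181 and 169 CPM in untreated and 141, 131 and 153 CPM in budesonide libraries, lower in every budesonide library.

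Because each ratio of reads is taken inside a library, it does not depend on how libraries are scaled. The ratio of Nectin3 to Nectin2 reads was 0.290, 0.334 and 0.331 without and 0.543, 0.690 and 0.545 with budesonide, a 1.85-fold shift. That of Nectin1 to Nectin2 went from 0.709, 0.626 and 0.627 to 0.849, 0.912 and 0.958, a 1.39-fold shift. Nectin2 thus gave 50.04% to 51.1% of the reads of Nectin1, Nectin2 and Nectin3 together in untreated libraries and 38.4% to 41.8% in budesonide libraries. Nectin3 gave 14.5% to 17.1% and then 21.8% to 26.5%. The ratio of Pecam1 to Epcam reads was 0.383, 0.364 and 0.391 without budesonide and 1.72, 1.56 and 1.79 with it, a 4.45-fold shift.

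The ratio of L1cam to Ncam1 reads was 0.169, 0.246 and 0.218 in untreated libraries. In budesonide libraries it was 0.127, 0.137 and 0.124, which is 0.619 times the untreated ratio. For all 4 ratios the groups did not overlap, and each gave p = 0.10 in an exact two-sided permutation test over the 6 samples (0.10 also adjusted over the 4 ratios). That is the smallest p that 3 against 3 allows, so none of them could pass. Each ratio combines the changes of its members, which are given separately, so its shift is no further result.

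**Figure D3:**
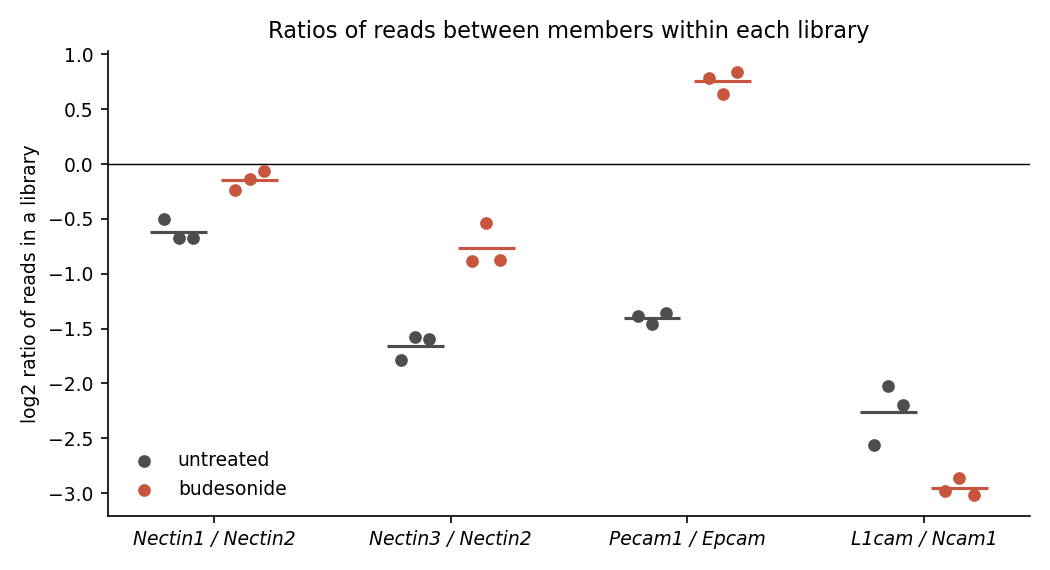
Log2 ratio of reads between 2 members within each library, for 4 pairs. Points are libraries (untreated grey, budesonide red) and bars are group means; the Pecam1 to Epcam ratio lies below 0 in all untreated and above 0 in all budesonide libraries.

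The gene of afadin, Afdn, which links nectin tails to actin, rose from 393 ± 12.8 to 483 ± 31.2 CPM, a log2 fold change of 0.30 ± 0.06 (SE) with adjusted p = 4.07e-05 by edgeR. Of 8 cytoplasmic partners of nectins, all tested, 2 rose and 2 fell (median log2 fold change -0.12). Plekha7, which joins the cadherin-catenin complex to microtubules at the same junction, rose from 222 ± 6.14 to 316 ± 26.02 CPM (edgeR adjusted p = 2.47e-09). Mpdz, a scaffold of many PDZ domains, fell from 61.2 ± 6.31 to 32.9 ± 2.91 CPM (edgeR adjusted p = 8.69e-11). Lmo7, an afadin-binding LIM protein, fell from 37.9 ± 4.36 to 30.0 ± 3.29 CPM (edgeR adjusted p = 0.0112). That call was lost in DESeq2 (0.118), without untreated replicate 3 (0.163) or without budesonide replicate 2 (0.128).

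Among the other nectin family members and their ligands, 7 of 10 were tested, 1 rose and none fell (median -0.14). The riser was Pvr, a nectin-like ligand of nectin-3, from 7.35 ± 0.86 to 10.9 ± 1.36 CPM (edgeR adjusted p = 0.0154). It did not pass in DESeq2 (0.0831), without untreated replicate 3 (0.0667) or without budesonide replicate 2 (0.0908).

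F11r, the gene of JAM-A, was at 23.8, 25.03 and 21.5 CPM without and 26.5, 23.4 and 25.9 CPM with budesonide. The groups overlapped, and the log2 fold change was 0.10 ± 0.11 (SE; edgeR adjusted p = 0.553). Its 95% interval of -0.13 to 0.34 corresponds to 0.916-fold to 1.26-fold. Of its relatives in the JAM and CTX family 8 of 9 were tested, 2 rose and 1 fell (median -0.32). Gpa33, the A33 antigen of gut epithelium, rose from 17.9 ± 0.36 to 44.5 ± 2.45 CPM (edgeR adjusted p = 3.93e-14). Jam2 (JAM-B) rose from 15.8 ± 1.39 to 24.6 ± 4.37 CPM (edgeR adjusted p = 0.000116). Cxadr, the coxsackievirus and adenovirus receptor, fell from 34.6 ± 3.73 to 23.0 ± 1.97 CPM (edgeR adjusted p = 4.56e-05).

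Alcam (CD166), which binds itself and CD6 and guides axons, was the member that fell most. It had 14.6, 10.97 and 13.8 CPM (96, 78 and 88 reads) in untreated libraries. In the budesonide libraries 3.804, 2.94 and 4.596 CPM were left, from 27, 20 and 25 reads. The groups were far apart, and the log2 fold change of -1.81 ± 0.21 (SE; 95% interval -2.22 to -1.39) gave adjusted p = 9.01e-10 by edgeR. Its size exceeded that of 99.4% of tested genes, and it stayed between -1.95 and -1.64 under every alternative.

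Ncam1, the neural cell adhesion molecule, was at 20.7, 16.6 and 19.5 CPM without and 23.4, 22.5 and 20.8 CPM with budesonide. The groups just failed to overlap, and the log2 fold change of 0.24 ± 0.12 (SE; 95% interval -0.01 to 0.49) did not pass, edgeR adjusted p = 0.156. L1cam, an axonal adhesion molecule, had the fewest reads of the members, 23, 29 and 27 without and 21, 21 and 14 with budesonide. That is 3.51, 4.08 and 4.24 CPM, and 2.96, 3.09 and 2.57 CPM. Each budesonide value lay below each untreated value, and the log2 fold change of -0.44 ± 0.29 (SE; 95% interval -1.03 to 0.14) did not pass, edgeR adjusted p = 0.272, and the interval holds both no change and a 2-fold fall. Exons of L1cam and of Arhgap4 on the same strand share 100 bases in GENCODE M21, and Arhgap4 held 44 to 76 reads.

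In all, 8 of the 10 members had groups that did not overlap, 4 higher and 4 lower, where 39.6% of all tested genes did, 19.8% in each direction. Of these 8, Nectin3, Ncam1 and L1cam did not pass the edgeR test. Against a fold of 1.5, Pecam1 and Alcam passed (glmTreat of edgeR; 4.21% of all tested genes passed), and Icam1 (adjusted p = 0.387), Nectin2 (0.405) and Epcam (1.00) did not.

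The other listed immunoglobulin adhesion molecules, most but not all of them neural, were all tested. Of 19 genes 1 rose and 7 fell (median log2 fold change -0.38). Nrcam, an L1 family member, fell from 49.8 ± 5.82 to 13.9 ± 1.81 CPM (edgeR adjusted p = 1.71e-17). Neurofascin, Nfasc, of the same family, fell from 94.6 ± 3.10 to 43.7 ± 7.07 CPM (edgeR adjusted p = 4.20e-15). The riser was Mcam (CD146), an adhesion molecule of vessel walls and melanoma, from 18.3 ± 0.95 to 43.6 ± 0.71 CPM (edgeR adjusted p = 1.48e-13). The summed level of the list was 263 to 275 CPM in untreated and 171 to 189 CPM in budesonide libraries.

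Neural markers did not move together. Of 8 neural progenitor markers 3 were tested, 1 rose (Pax6) and 2 fell (Nes and Sox3). The sum over all 8 went from between 169 and 178 CPM to between 61.8 and 63.1 CPM. Of that sum 71.0% came from Nes, an intermediate filament gene, which fell from 131 ± 5.21 to 36.0 ± 1.96 CPM. Of 8 tested neuron markers 3 rose (Stmn2, Tubb3 and Neurod1) and 4 fell (Dcx, Elavl3, Rbfox3 and Map2). The sum over all 10 was 113 to 119 CPM without and 155 to 165 CPM with budesonide. Of that sum 59.4% came from Stmn2, which rose from 59.1 ± 4.67 to 105 ± 5.39 CPM, so the sum mostly shows that gene. The part of neural cells in the falls of Alcam, Nrcam and Nfasc was not tested.

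Vascular and leukocyte adhesion molecules were scarce. Of 16 listed, 15 were matched by symbol and 10 tested, and 2 rose and 1 fell (median 0.02). Icam2, Icam4, Icam5, Madcam1 and Cd177 had too few reads. Cd38, an NAD-consuming ectoenzyme that binds PECAM1, rose from 4.30 ± 0.77 to 8.56 ± 0.95 CPM (edgeR adjusted p = 0.000279). Cd47, a self-recognition signal, rose from 4.49 ± 0.77 to 7.45 ± 0.09 CPM (edgeR adjusted p = 0.00945), and did not pass in DESeq2 (0.0625) or without untreated replicate 1 (0.0580). Cd44, the hyaluronan receptor, fell from 6.07 ± 1.06 to 3.27 ± 0.52 CPM (edgeR adjusted p = 0.00655), and did not pass in DESeq2 (0.0659) or without untreated replicate 2 (0.0505).

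Signalling, cytoskeletal and glycan partners of PECAM1, NCAM1, L1CAM, ALCAM and ICAM1 were all tested, and of 15 genes 4 rose and 5 fell (median -0.15). Src, a kinase that acts at adhesion sites, fell from 42.2 ± 2.83 to 26.3 ± 1.85 CPM (edgeR adjusted p = 4.82e-07). Radixin, Rdx, which ties membrane proteins to actin, fell from 371 ± 16.2 to 307 ± 14.1 CPM (edgeR adjusted p = 0.000146). Of the ankyrins that anchor L1 family tails, Ank3 fell from 86.6 ± 0.16 to 70.8 ± 4.19 CPM (edgeR adjusted p = 0.00156), and Ank2 rose from 78.0 ± 4.42 to 94.0 ± 3.52 CPM (edgeR adjusted p = 0.00255). Syntenin, Sdcbp, which binds the tail of ALCAM, rose from 20.02 ± 2.53 to 26.6 ± 0.70 CPM (edgeR adjusted p = 0.00680), and did not pass without untreated replicate 1 (0.0547). The polysialyltransferases of NCAM1, St8sia2 and St8sia4, were both low and did not pass.

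**Figure D4:**
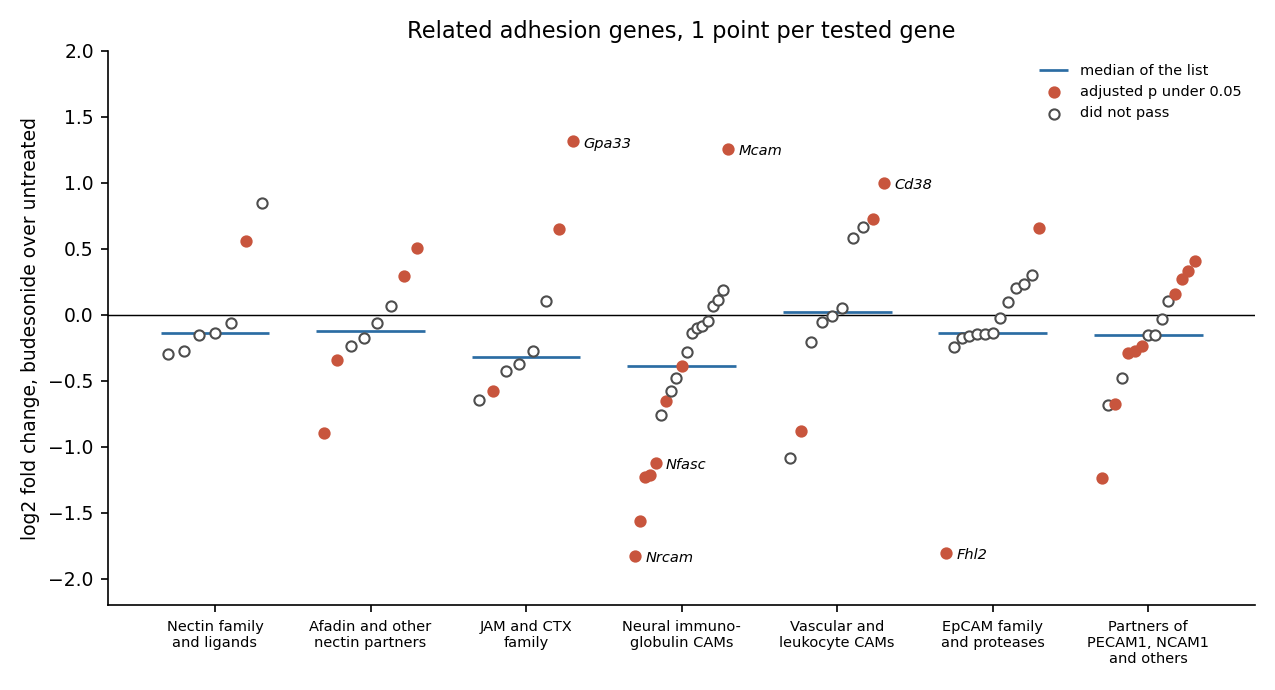
Log2 fold change, budesonide over untreated, of each tested gene in 7 lists of related adhesion genes (1 point per gene; filled red, adjusted p under 0.05; blue bar, median of the list). Of 80 tested genes 13 rose and 17 fell, where 15.2% of all tested genes rose and 13.5% fell. Of the falls, 7 were in the mostly neural list of immunoglobulin adhesion molecules.

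Over the 7 lists together 80 of 93 genes were tested, and 13 rose and 17 fell, with a median log2 fold change of -0.14. Of all tested genes 15.2% rose and 13.5% fell, with a median of -0.02. DESeq2 called 9 higher and 10 lower, and without scaling factors 11 were higher and 22 lower.

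Levels of different genes were compared per length, as CPM per kb of the longest GENCODE M21 transcript. In untreated libraries Epcam (35.8 ± 0.75) and Nectin2 (33.3 ± 1.54) stood highest, followed at a distance by Nectin1 (10.6 ± 1.18), F11r (9.31 ± 0.71) and Pecam1 (8.06 ± 0.34). Icam1 (3.33 ± 0.15), Nectin3 (3.17 ± 0.19), Ncam1 (2.88 ± 0.32), Alcam (2.18 ± 0.32) and L1cam (0.77 ± 0.08) came below (CPM per kb, SD, n = 3). The ranges of Nectin1 and F11r overlapped, as did those of Icam1 with Nectin3 and of Nectin3 with Ncam1.

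In budesonide libraries Epcam (23.8 ± 1.11) and Pecam1 (23.8 ± 0.83) shared the top with overlapping ranges, ahead of Nectin2 (20.8 ± 2.07 CPM per kb). F11r (10.04 ± 0.65) and Nectin1 (9.10 ± 1.13) overlapped below them, and Icam1 (5.77 ± 0.79) stood alone. Nectin3 (3.66 ± 0.15) overlapped with Ncam1 (3.39 ± 0.20), and at the bottom Alcam (0.63 ± 0.14) overlapped with L1cam (0.56 ± 0.05). Pecam1 thus ranked 5 of 10 without budesonide and was level with the highest member with it.

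The order depends on the length assumed. With the median length of the coding transcripts, chosen after seeing the data, Nectin3 (31.1 CPM per kb untreated, 35.8 budesonide) ranked 3 without and 2 with budesonide, since its longest transcript has 9116 bases and its median coding transcript 932. Pecam1 then ranked 6 without budesonide (8.89) and 3 with it (26.2). Epcam (55.2 and 36.6) stayed at the top of both orders, its range overlapping that of Nectin3 with budesonide. Which transcripts were present was not measured.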

How the data were processed

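Libraries were made with a stranded mRNA kit, per the labels' protocols. Of the upstream tools, STAR 2.7.5c, cutadapt 2.5, featureCounts 2.0, bcl2fastq and DESeq2 appear in the submitters' processing notes, with GRCm39 as the build. The annotation and the strand setting of the counting: not given in the sources used here. The authors deposited raw counts for 53819 gene symbols. They also deposited a normalized signal for 33560 genes, found on checking to be each count divided by its library's DESeq2 size factor, to within 0.00562 reads.

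The members and gene lists were chosen with earlier results of these data known. Groups came from the sample titles. Library totals ranged from 5666168 to 7476862 reads, and 3 reads are worth 0.422 to 0.552 CPM. Libraries of a group differed from each other by a chi-square of 1.42 to 3.12 per gene, where 1 is sampling noise. edgeR 4.0.16 in R 4.3.3 was run on the raw counts (filterByExpr with minimum count 10 and minimum total 15, TMM scaling, robust quasi-likelihood fit, group as the only term), with Benjamini-Hochberg adjustment over all 17155 tested genes and a threshold of 0.05. Standard errors were derived from the F statistic. CPM values are TMM-scaled. The procedure was also run on counts simulated from the means and dispersions of the main fit. Among genes averaging 5 CPM or more, 44% of changes of 1.25-fold and 82% of changes of 1.5-fold were recovered. A small change could therefore be missed.

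All 10 members are named. From each of 7 related lists, up to 2 risen and 2 fallen genes are named, those of lowest adjusted p whose mean reaches 1 CPM, and from each marker list its highest gene. Cdh5, Krt8, Krt18, Foxa2, Ptprc, Ank3, Pax6, Sox3, Tubb3, Neurod1, Dcx, Elavl3, Rbfox3 and Map2 fall outside that rule. Genes named as having too few reads or as not passing also fall outside it. All of these were chosen after their values were seen. Transcript lengths came from GENCODE M21, and promoter sequences from RefSeq on GRCm38.p6. Both are of another build than the counts and were matched by symbol. Alternatives were DESeq2 1.42.0, RLE, upper quartile or no scaling factors, no low-count filter, limma 3.58.1 on log2 of the deposited normalized values plus 1, a replicate block, each library left out, an adjusted p under 0.01 and glmTreat against 1.5-fold. Ratios between members were also taken with 1 read added to each count. Some list members are not reported here by name.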

Additional observations from a re-analysis of the deposited data

How the results depend on the processing

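No alternative reversed a member. The cause of the differences below was not tested. The calls of Pecam1 and Alcam held under all 15 alternatives, and those of Epcam, Nectin2 and Icam1 under all but the test against 1.5-fold. Nectin1 gained a call under 5, named with its values in the report, and Nectin3, F11r, Ncam1 and L1cam passed under none. The number of members called was 2 higher and 3 lower, and 1 and 1 against 1.5-fold. With 1 library left out it was 2 higher and 3 to 4 lower. Of all tested genes 2601 rose and 2316 fell, against 325 and 398 against 1.5-fold, and DESeq2 called 1321 lower. With 1 library left out 2111 to 2634 rose and 1888 to 2126 fell. Of the related genes 13 rose and 17 fell, 2 and 6 against 1.5-fold and 10 lower in DESeq2, and with 1 library left out 10 to 12 rose and 14 to 19 fell. The 4 ratios kept their direction with 1 read added and with each library left out, but none could pass a test in this design.

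Same-numbered libraries hardly deviated together (r from -0.018 to 0.059 across genes). The libraries numbered 1 (r = 0.040) and 2 (r = 0.059) correlated best with their own number, and those numbered 3 (r = -0.018) did not. With so few libraries and such small values, whether the numbers pair the libraries cannot be told. With the replicate block 2649 genes rose and 2337 fell, and the members' counts were the same. The 4 ratios then gave p = 0.25 in an exact sign-flip permutation test, the smallest that 3 pairs allow. L1cam, at 14 to 29 reads, and Alcam with budesonide, at 20 to 27 reads, are limited by depth.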

Other observations

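The genes whose log2 CPM followed Pecam1 most closely over the 6 libraries, among 11083 other genes averaging 5 CPM or more, were Sox2 (Pearson r = 0.999, 140 CPM without and 259 CPM with budesonide), Zbtb43 (r = 0.999, 26.8 and 39.2 CPM) and Psme4 (r = 0.999, 315 and 443 CPM). Sox2 is a core pluripotency factor, and Psme4 encodes an activator of the proteasome. For Epcam they were Wnt5b (r = 0.999, 14.5 and 4.49 CPM), Lin28b (r = 0.999, 72.4 and 33.9 CPM) and Pik3c2b (r = 0.998, 20.5 and 8.14 CPM). Wnt5b encodes a WNT ligand and Lin28b an RNA-binding protein that blocks let-7. These values describe 6 libraries that fall into 2 groups, so any gene that differs between the groups shares that difference. With so few libraries 14.9% of genes had r over 0.9 with Pecam1 and 9.89% with Epcam.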
